A study of Mus musculus with 14 samples.

Results

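Olig1, Olig2, Nkx2-2, Nkx6-2, Myrf, Tcf7l2, Zfp488 and Myt1 are 8 transcription factors outside the Sox family that act in the specification of oligodendrocytes or in their myelination. The rule that chose them names such factors and uses no value of these arrays, but they were picked with earlier results of these data known. All 8 were among the 23152 genes with a value, and all 8 lay above the limit on dim genes, so all were tested. Oligodendrocytes are the cells that wrap central axons in myelin. Olig2 and its relative Olig1 mark the lineage from its start, Nkx2-2 and Nkx6-2 are homeodomain proteins of the same progenitors and of maturing cells, and Myrf is the membrane-tethered factor that switches on myelin genes once a progenitor leaves the cell cycle. Zfp488 is a zinc finger partner of Olig2, Tcf7l2 is the Wnt-pathway factor that marks newly formed oligodendrocytes, and Myt1 is a zinc finger protein of progenitors and young neurons.

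The cells were neural stem cells of the mouse subventricular zone, taken at postnatal day 4 and grown in a proliferation medium, with RNA measured on 14 Affymetrix arrays. Each of 7 cultures, called clones, was set up from its own animal, and the design text describes transduction with adenoviral Cre for cultures of both genotypes. Each clone was sampled after 24 h with EGF, the growth factor that keeps such cells dividing, and after 24 h without it. EGF acts through ERK, and ERK signalling relieves repression by capicua, the DNA-binding protein that Cic encodes. The 4 groups were Cic-/- with EGF (clones 5 to 7, conditional knockout, Cicflox/flox, n = 3), Cic-/- without EGF (the same 3 clones), Cic+/+ with EGF (clones 1 to 4, wild type, n = 4) and Cic+/+ without EGF (the same 4 clones). Cre was delivered by virus to the whole culture, and no cell type was selected by it. The sources used here name neither strain nor sex.

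Cic, the deleted gene, had a level of 7.54 ± 0.13 in Cic-/- clones with EGF and 9.50 ± 0.13 in Cic+/+ clones with EGF (log2, mean ± SD), a difference of -1.97 ± 0.15 (SE, limma adjusted p = 2.18e-05). Without EGF the levels were 7.26 ± 0.22 and 9.43 ± 0.21. All 11 markers of neural stem cells lay above the dim limit, with a mean level from 9.93 to 10.33 in every array. Above the dim limit of 4.40 lay 7 of 8 markers of microglia, 4 of 6 of endothelium, 5 of 7 of fibroblasts and pericytes and 5 of 6 of ependyma. The mean over each of these lists was 4.74 to 5.57 in every array, and single markers were higher, such as endothelial Flt1 at 7.76 to 8.59 and fibroblast Col1a1 at 6.15 to 7.02 as group means. Clone 4 stood apart in Xist, with a level of 4.73 with EGF and 3.83 without it, where the 12 arrays of clones 1 to 3 and 5 to 7 had 11.96 to 12.57. Clone 5 stood apart in 11 cell cycle genes, whose mean level was 8.07 with EGF and 8.20 without it, while the other clones had 9.26 to 10.43. The number of arrays limits the precision. In bulk RNA, fewer cells of a type and less RNA per cell cannot be told apart, and this holds for every level that follows.

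The clearest differences were in Myrf. Without EGF, Myrf was 3.4-fold lower and Zfp488 was 2.02-fold lower in Cic-/- than in Cic+/+ clones, and both passed the test. Myrf also passed whichever clone was left out, but Zfp488 passed in only 2 of these 7 fits. With EGF, Myrf fell 3.19-fold in Cic+/+ clones, while in Cic-/- clones Myrf was low with EGF and without it. Myt1 fell 2.58-fold with EGF in Cic-/- clones, but passed in only 2 of 7 fits with a clone left out. It was lower with EGF in all 7 clones, and its EGF effect was not shown to differ between the genotypes. The factors of specification, Olig1 and Olig2, had no difference that passed. Their mean levels of 12.60 and 12.36 lie at percentiles 99.8 and 99.7 of all genes, near the top of the array's range, and whether signal is compressed there was not tested.

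**Figure D1:**
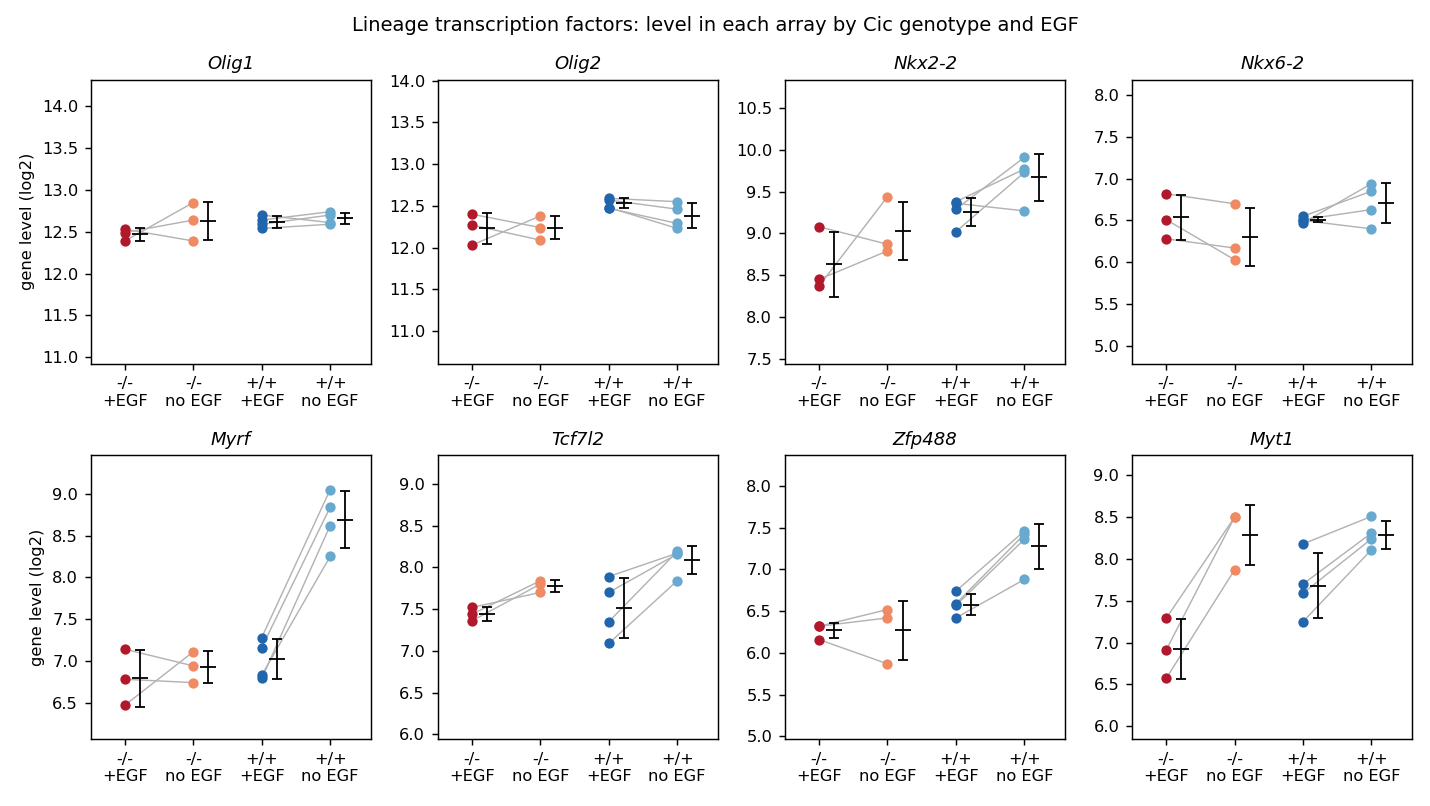
Level of each of the 8 factors (log2, vertical axis) in the 4 groups, with 1 point per array, the group mean as a bar, and lines that join the arrays of 1 clone. In Cic+/+ clones without EGF, Myrf lies between 8.25 and 9.05, above all 10 arrays of the other groups, which lie at or below 7.28. Olig1 lies between 12.39 and 12.85 and Olig2 between 12.03 and 12.59.

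The comparison of genotypes without EGF asked what the loss of Cic did to the factors once the growth factor was gone. Of the 8 factors, 2 fell and none rose, where 0.426% of the 17364 genes tested fell and 0.553% changed in either direction at an adjusted p under 0.05. The median difference of the 8 was -0.36, against 0 for all genes tested. In 2 of the 8, the Cic-/- and Cic+/+ arrays did not overlap, where 9.38% of all genes had no overlap.

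Myrf had levels of 6.94, 7.11 and 6.74 in Cic-/- clones 5 to 7 without EGF, against 8.25, 8.84, 9.05 and 8.62 in Cic+/+ clones 1 to 4 without EGF. The highest Cic-/- clone was more than 1 log2 unit below the lowest Cic+/+ clone. The difference was -1.77 ± 0.21 (95% interval -2.22 to -1.31, limma adjusted p = 0.000853). It passed whichever clone was left out, with differences from -1.91 to -1.64.

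Zfp488 had levels of 5.87, 6.42 and 6.52 in Cic-/- clones 5 to 7 without EGF, against 6.88, 7.42, 7.46 and 7.36 in Cic+/+ clones 1 to 4 without EGF. The 2 groups did not overlap, and clone 1 was the lowest of the Cic+/+ clones. The difference was -1.02 ± 0.18 (95% interval -1.40 to -0.63, limma adjusted p = 0.018). The call was lost when clone 2, 3, 4, 5 or 6 was left out, with adjusted p values of 0.101, 0.0849, 0.0865, 0.0692 and 0.0596.

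No other factor passed without EGF. Nkx2-2 had levels of 8.79, 9.44 and 8.87 in Cic-/- clones, against 9.27, 9.73, 9.91 and 9.77 in Cic+/+ clones. Clone 6 reached into the Cic+/+ range, and the difference was -0.64 ± 0.22 (95% interval -1.10 to -0.17, limma adjusted p = 0.266). Nkx6-2 differed by -0.41 ± 0.18 (limma adjusted p = 0.446), with 6.03, 6.70 and 6.17 in Cic-/- clones against 6.85, 6.40, 6.94 and 6.63 in Cic+/+ clones. Tcf7l2 differed by -0.31, with 95% limits of -0.68 and 0.07. For Olig1, Olig2 and Myt1 the 95% intervals ran from -0.31 to 0.24, from -0.43 to 0.15 and from -0.50 to 0.50, so that a change beyond 0.50 on the log2 scale lies outside them.

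With EGF present, none of the 8 factors passed between genotypes in limma, and 3 had an unadjusted p under 0.05. Of all genes tested, 0.317% changed, 0.242% with a lower and 0.0749% with a higher level in Cic-/- clones. The median difference of the 8 was -0.26, against 0.02 for all genes. Myt1 had levels of 7.29, 6.91 and 6.57 in Cic-/- clones with EGF, against 7.25, 8.18, 7.70 and 7.59 in Cic+/+ clones with EGF. Clone 1 lay among the Cic-/- clones, and the difference was -0.76 ± 0.23 (limma adjusted p = 0.227). Nkx2-2 differed by -0.63 ± 0.22 (limma adjusted p = 0.286), with 8.45, 8.37 and 9.08 in Cic-/- clones against 9.36, 9.02, 9.29 and 9.38 in Cic+/+ clones.

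Olig2, the basic helix-loop-helix factor that the lineage needs for its specification, had levels of 12.03, 12.40 and 12.27 in Cic-/- clones with EGF, against 12.59, 12.57, 12.47 and 12.48 in Cic+/+ clones with EGF. The 2 groups did not overlap, but the difference was small, at -0.30 ± 0.14 (95% interval -0.59 to -0.01, limma adjusted p = 0.46). Olig1 and Zfp488 did not overlap either, with differences of -0.15 ± 0.13 and -0.31 ± 0.18 that did not pass. These 3 of 8 stand beside 11.7% of all genes without overlap. Myrf differed by -0.22 ± 0.21 with EGF and Nkx6-2 by 0.03 ± 0.18.

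**Figure D2:**
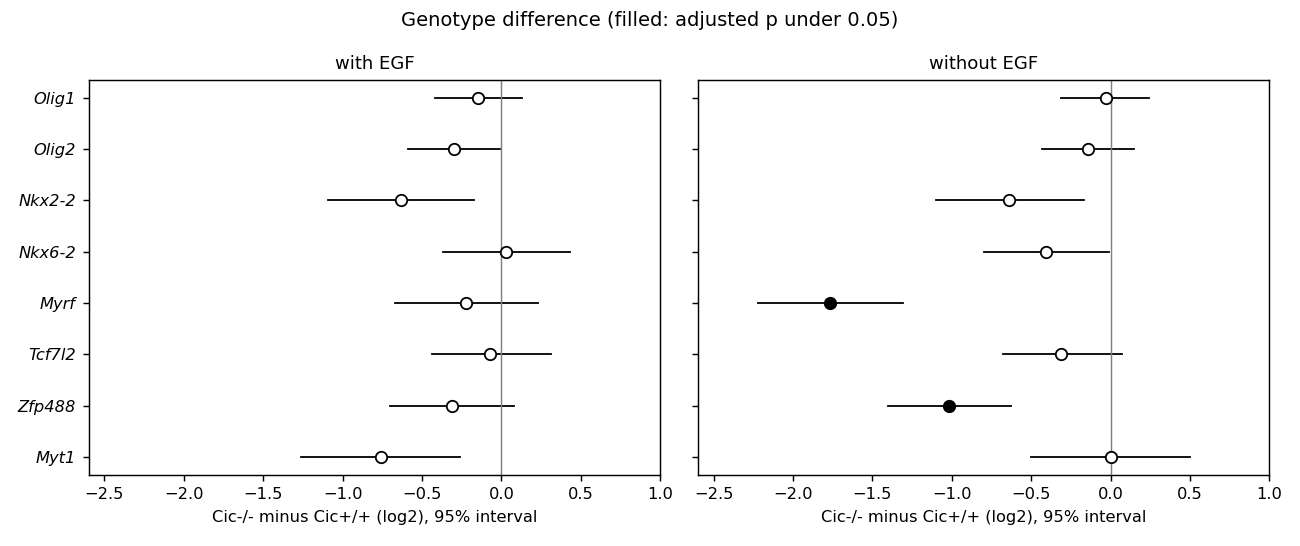
Difference of each factor between genotypes (Cic-/- minus Cic+/+, log2, from the limma fit) with its 95% interval, with EGF and without EGF. Without EGF, Myrf at -1.77 and Zfp488 at -1.02 lie furthest from 0, and with EGF no factor passed the test.

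In Cic+/+ clones, the comparison asked how levels after 24 h with EGF differed from those after 24 h without it, in cells that have Cic. Of the 8 factors 1 fell, where 0.593% of all genes fell and 0.898% changed in either direction. Myrf had levels of 6.83, 7.16, 7.28 and 6.79 in clones 1 to 4 with EGF, against 8.25, 8.84, 9.05 and 8.62 in the same clones without EGF. It was lower with EGF in 4 of 4 clones, with differences from -1.83 to -1.42 on the log2 scale. The difference was -1.68 ± 0.20 (limma adjusted p = 0.00101), and it passed whichever clone was left out.

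Zfp488, Tcf7l2 and Myt1 were also lower with EGF in 4 of 4 Cic+/+ clones. Zfp488 had 6.42, 6.59, 6.74 and 6.57 with EGF, against 6.88, 7.42, 7.46 and 7.36 without EGF, with no overlap between the groups (8.39% of all genes had none). Its difference was -0.70 ± 0.17, with a limma adjusted p of 0.0691, and under a block for the clone, random or fixed, the adjusted p was 0.00777 or 0.011. Tcf7l2 had 7.09, 7.89, 7.70 and 7.35 with EGF, against 7.84, 8.17, 8.16 and 8.19 without EGF. Its difference was -0.58 ± 0.16 (limma adjusted p = 0.128), with 0.0212 or 0.0287 under the block. Myt1 differed by -0.61 ± 0.21 (limma adjusted p = 0.23), with 0.0434 or 0.0213 under the block. With either block 4 of the 8 factors passed in Cic+/+ clones, all of them lower with EGF, where 3.2% of all genes were lower under the random and 3.28% under the fixed block.

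In Cic-/- clones 1 of the 8 factors fell with EGF, where 0.0921% of all genes fell, 0.0979% rose and 0.19% changed in either direction. Myt1 had levels of 7.29, 6.91 and 6.57 in clones 5 to 7 with EGF, against 8.50, 8.50 and 7.87 in the same clones without EGF. The groups did not overlap, and the difference was -1.37 ± 0.25 (95% interval -1.90 to -0.84, limma adjusted p = 0.0419). Under the clone block, random or fixed, the adjusted p was 0.00264 or 0.00146, where 1.08% or 1.6% of all genes fell. Without a block the call was lost when any of clones 3 to 7 was left out, with adjusted p values of 0.089, 0.0858, 0.134, 0.538 and 0.0704.

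Tcf7l2 had 7.36, 7.52 and 7.44 in Cic-/- clones with EGF, against 7.80, 7.70 and 7.84 without EGF. These groups did not overlap either, which makes 2 of 8 beside 13% of all genes, but the difference of -0.34 ± 0.19 did not pass (limma adjusted p = 0.611). Myrf differed by -0.13 ± 0.23 (95% interval -0.62 to 0.35) and Zfp488 by 0.00 ± 0.19 (95% interval -0.41 to 0.41). The Zfp488 value is a median of 5 probesets, of which 2 were lower and 3 higher with EGF in Cic-/- clones. Its probeset with the highest mean over all arrays differed by -1.15 ± 0.24 (limma unadjusted p = 0.000303, 0.162 adjusted over all probesets). Nkx2-2 differed by -0.40 ± 0.23 in Cic-/- clones and by -0.41 ± 0.20 in Cic+/+ clones, and neither passed.

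Per clone, 2 of the 8 factors were lower with EGF in all 7 clones, where 7.43% of all genes were, and none was higher with EGF in all 7, where 6.04% of all genes were. These were Tcf7l2, with differences from -0.84 to -0.18, and Myt1, with differences from -1.59 to -0.32. Myrf was lower with EGF in 1 of 3 Cic-/- clones, clone 6, and in 4 of 4 Cic+/+ clones. Olig2 was higher with EGF in 2 of 3 Cic-/- clones and in 4 of 4 Cic+/+ clones, by at most 0.25.

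**Figure D3:**
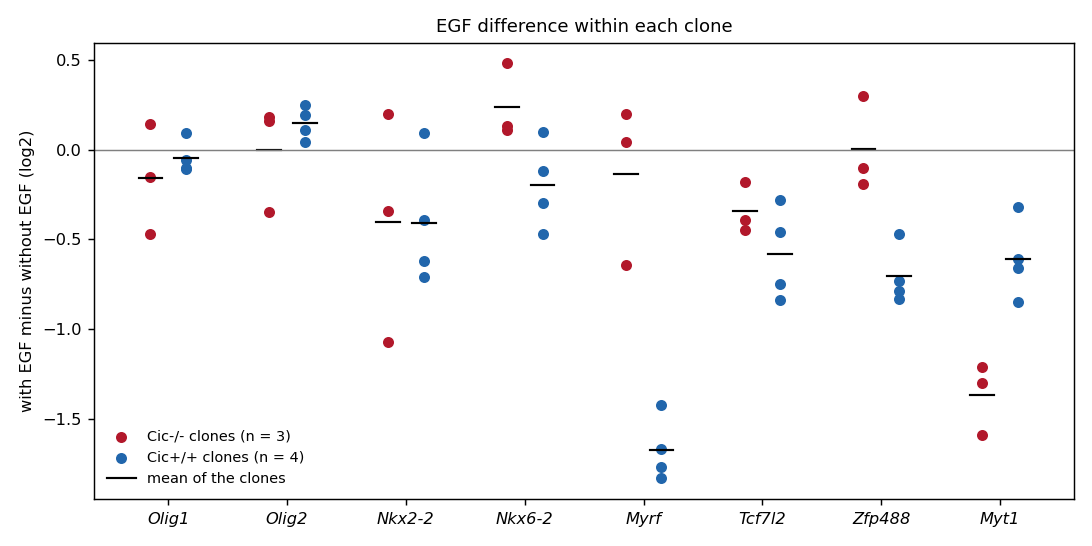
Difference of each factor within a clone (with EGF minus without EGF, log2, vertical axis), with 1 point for each of the 3 Cic-/- and 4 Cic+/+ clones. Myrf lies between -0.64 and 0.20 in Cic-/- clones and between -1.83 and -1.42 in Cic+/+ clones, and Tcf7l2 and Myt1 lie below 0 in all 7 clones.

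The difference in the EGF effect between genotypes was tested directly as the effect in Cic-/- minus that in Cic+/+. None of the 8 factors passed in limma, 3 had an unadjusted p under 0.05, and of all genes 0.00576% passed, which is 1 gene, Enpp6. The Myrf effects of -0.13 in Cic-/- clones and -1.68 in Cic+/+ clones differed by 1.54 ± 0.30 (95% interval 0.90 to 2.18, unadjusted p = 0.00014, limma adjusted p = 0.402). With the clone as a random block the adjusted p was 0.0389, where 0.0403% of all genes passed with a higher effect, and with it as a fixed block 0.121. Zfp488 differed in its effect by 0.71 ± 0.25 and Myt1 by -0.76 ± 0.33, both with a limma adjusted p of 1 and with an unadjusted p of 0.0148 and 0.0367. The EGF effect on Myt1 is thus not shown to differ between the genotypes, and that on Myrf only under the random block. At the Zfp488 probeset with the highest mean the effects differed by 0.18 ± 0.31 (limma unadjusted p = 0.573). Over all 5 Zfp488 probesets this difference was positive, from 0.15 to 1.29.

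The gene values are medians of probesets, and the probesets of a gene did not all move alike. Of the 23 probesets of Myrf, 22 were highest in Cic+/+ clones without EGF. Tested singly over all probesets, 9 of the 23 fell in Cic-/- clones without EGF, where 0.132% of all 233753 probesets fell. With EGF in Cic+/+ clones 11 of the 23 fell, where 0.0984% of all probesets fell. The Myrf probeset with the highest mean over all arrays, called the brightest, did not pass in either comparison. Its levels were 9.0, 8.97 and 9.30 in Cic-/- clones without EGF, against 9.16, 9.25, 9.28 and 9.92 in Cic+/+ clones without EGF.

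The brightest of the 5 Zfp488 probesets moved more than the gene value. It had 7.03, 6.61 and 6.88 in Cic-/- clones with EGF, against 8.70, 8.90, 8.91 and 8.77 in Cic+/+ clones with EGF. Without EGF it had 8.15, 7.83 and 7.98 in Cic-/- clones, against 9.70, 10.63, 9.90 and 10.38 in Cic+/+ clones. With this probeset as the gene value, Zfp488 was lower by -1.98 with EGF (limma adjusted p = 0.000561) and by -2.16 without EGF. All 20 Myt1 probesets were lower with EGF in Cic-/- clones, none passed singly in limma, 16 of the 20 had an unadjusted p under 0.05, and the brightest differed by -0.03. All 11 Nkx2-2 probesets were lowest in Cic-/- clones with EGF and highest in Cic+/+ clones without EGF, and none passed singly in limma in any of these 4 comparisons, where 3 to 8 of the 11 had an unadjusted p under 0.05.

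**Figure D4:**
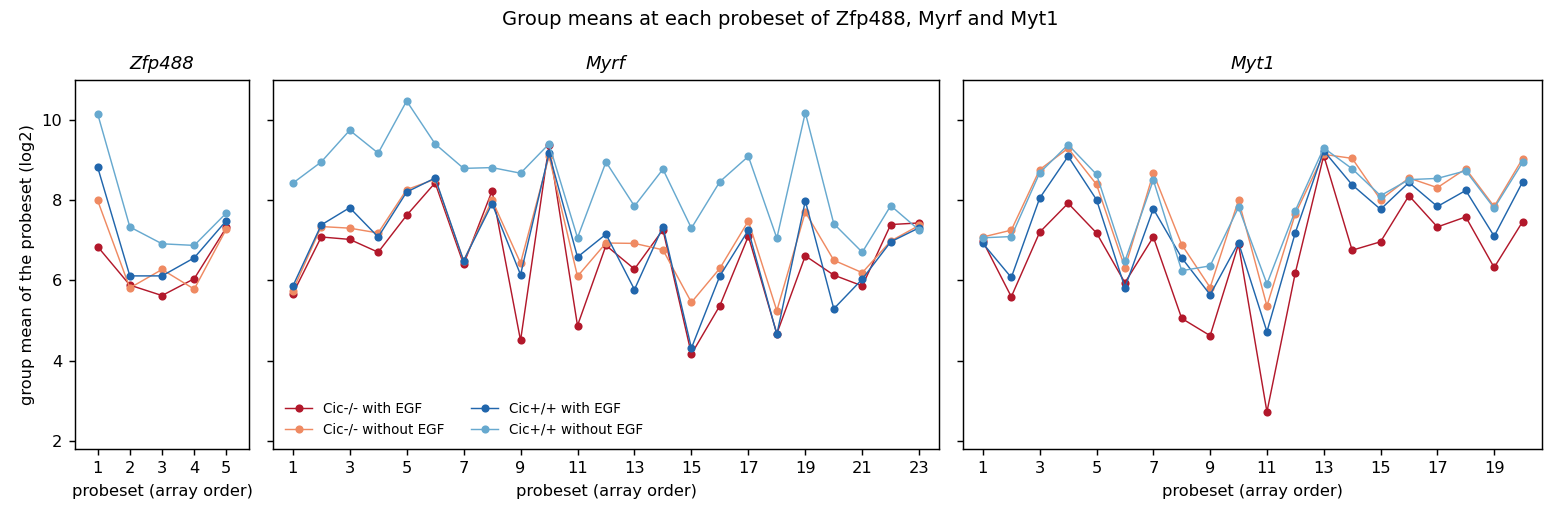
Mean level of each probeset (log2, vertical axis) of Zfp488, Myrf and Myt1 in the 4 groups, with the probesets in array order along the horizontal axis and lines that join the means of 1 group. Zfp488 probeset 1 separates the genotypes with and without EGF, and Myrf probeset 10, the brightest, lies between 9.09 and 9.40 in all 4 groups.

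Promoter windows show what DNA lies at the starts of those factors that have such a window, whether they passed or not. For 6 of the 8 factors, 9 windows from RefSeq (GRCm38.p6) were used, with 250 bases before and 50 after the start, and the promoters of Olig1 and Myrf were not analysed here. Capicua is known to bind the octamers TGAATGAA and TGAATGGA, and neither was found on either strand of the 9 windows, where 2.47% of all 32851 windows held a match. Only these octamers were searched for, so the windows may hold other forms of the capicua site. The Myrf protein is known to bind CTGGCAC or CTGGTAC. On either strand 7.1% of all windows held a match, and of the 9 windows that of Zfp488 held 1, which begins at base 12 counted from the start. The Zfp488 window lies at chr14:33978715-33979014 on the minus strand and the first Myt1 window at chr2:181763082-181763381 on the plus strand, both written 5′ to 3′ in the direction of the gene. They are shown because both genes fell, and the capitals mark the match to CTGGTAC. A match is a description of the letters and is no measured site.
Zfp488: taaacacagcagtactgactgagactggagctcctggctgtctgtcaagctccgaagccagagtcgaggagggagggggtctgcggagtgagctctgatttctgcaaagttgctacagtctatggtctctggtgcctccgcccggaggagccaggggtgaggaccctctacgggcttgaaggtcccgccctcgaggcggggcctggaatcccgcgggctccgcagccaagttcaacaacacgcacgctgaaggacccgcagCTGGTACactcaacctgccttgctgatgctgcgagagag
Myt1: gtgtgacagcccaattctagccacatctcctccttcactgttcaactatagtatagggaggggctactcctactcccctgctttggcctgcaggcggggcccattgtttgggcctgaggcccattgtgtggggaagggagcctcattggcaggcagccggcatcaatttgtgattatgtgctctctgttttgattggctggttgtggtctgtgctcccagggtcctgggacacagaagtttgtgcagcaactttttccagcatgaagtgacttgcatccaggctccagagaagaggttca

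Among 15 tested genes of myelinating oligodendrocytes, 6 fell in Cic-/- clones without EGF and none rose, where 0.426% of all genes fell, and the median difference was -1.31. Enpp6, a phosphodiesterase of newly formed oligodendrocytes, had 4.56 ± 0.49 in Cic-/- clones without EGF and 8.51 ± 0.13 in Cic+/+ clones without EGF (SD, n = 3 and 4), a difference of -3.95 ± 0.21 (limma adjusted p = 2.96e-07). Mag, a myelin adhesion protein, had 4.33 ± 0.39 and 6.89 ± 0.41 in the same groups, and Cldn11, the tight junction claudin of myelin, had 6.77 ± 0.14 and 9.29 ± 0.52. Between genotypes with EGF, 1 of the 15 fell in Cic-/- clones, where 0.242% of all genes fell, and the median difference was -0.16. This was Ugt8a (-1.34 ± 0.24, limma adjusted p = 0.0334), and 4 of the 15 had an unadjusted p under 0.05. With EGF in Cic+/+ clones 7 of the 15 fell, where 0.593% of all genes fell, with a median of -1.24, and these include Fa2h (-2.87 ± 0.27), a hydroxylase for myelin lipids. In Cic-/- clones none of the 15 passed with EGF, while 5 had an unadjusted p under 0.05. Fa2h was near the threshold there, at -1.64 ± 0.31 (limma adjusted p = 0.0518). For the difference in the EGF effect 1 of the 15 passed, Enpp6, where 0.00576% of all genes passed, and 7 had an unadjusted p under 0.05. The mean level over the 16 listed genes on the array was 5.87 to 6.23 in Cic-/- clones without EGF and 6.96 to 7.35 in Cic+/+ clones without EGF. The part of such cells in the Myrf and Zfp488 differences was not tested.

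Among 12 progenitor genes 1 fell in Cic-/- clones with EGF, where 0.242% of all genes fell. This was Pdgfra, the receptor for PDGF-A, with 7.54 ± 0.82 in Cic-/- and 10.15 ± 0.24 in Cic+/+ clones (difference -2.61 ± 0.38, limma adjusted p = 0.0082). Without EGF none of the 12 passed between genotypes, with 9 higher and 3 lower in Cic-/- clones, and 2 had an unadjusted p under 0.05. These were Gpr17, a receptor of committed progenitors (-1.37 ± 0.31, limma adjusted p = 0.0718), and Pcdh15 (0.97 ± 0.31, limma adjusted p = 0.233). With EGF, Gpr17 fell in both genotypes, with differences of -2.46 ± 0.34 in Cic-/- and -2.71 ± 0.29 in Cic+/+ clones. C1ql1 also fell in Cic-/- clones and Neu4 in Cic+/+ clones, which makes 2 of the 12 in each genotype, where 0.0921% and 0.593% of all genes fell. All 11 cell cycle genes were lower in Cic-/- clones in both comparisons of genotype, with medians of -1.02 with EGF and -0.48 without, and none passed (6 and 1 had an unadjusted p under 0.05). Their mean level without EGF was 8.20, 9.26 and 9.63 in Cic-/- clones 5 to 7, against 9.34 to 9.65 in Cic+/+ clones. With EGF it was 8.07, 9.56 and 9.40, against 9.66 to 10.43. The part of these cell cycle genes in the differences of the 8 factors was not tested. Without clone 5, Myrf passed between genotypes without EGF, while Zfp488 in the same comparison (limma adjusted p = 0.0692) and Myt1 for EGF in Cic-/- clones (limma adjusted p = 0.134) did not.

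Among 28 other regulators of the lineage, 2 fell in Cic-/- clones with EGF and 2 without, where 0.242% and 0.426% of all genes fell. Hdac1, a histone deacetylase that acts with Hdac2 in oligodendrocyte differentiation, was in both counts, with 9.57 ± 0.29 and 9.24 ± 0.20 in Cic-/- clones with and without EGF, against 11.00 ± 0.23 and 10.62 ± 0.26 in Cic+/+ clones. Gsx1, a homeodomain protein of the ventral forebrain, fell with EGF (-1.03 ± 0.17), and Id2, an inhibitor of basic helix-loop-helix factors, fell without EGF (-1.07 ± 0.21). Nfib rose with EGF in Cic+/+ clones (0.60 ± 0.11), where 0.305% of all genes rose.

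None of the 11 Sox factors passed in limma in any comparison, and 0 to 2 had an unadjusted p under 0.05. Sox10, which acts with Myrf on myelin genes, differed by -1.53 ± 0.43 with EGF (limma adjusted p = 0.176) and by -1.34 ± 0.43 without (limma adjusted p = 0.228). Of 14 Wnt genes 1 passed, Tcf7l1, a repressor relative of Tcf7l2, which fell with EGF in Cic+/+ clones (-1.09 ± 0.19), where 0.593% of all genes fell. None of the 10 Hedgehog genes passed in any comparison, where 1 had an unadjusted p under 0.05 between genotypes with EGF and 2 without.

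Across the 14 arrays, which come from 7 clones in 4 groups and so share clones and treatments, Myrf was most like Angptl4 (Pearson r = 0.958), Sirt2 (0.941) and Enpp6 (0.939). Zfp488 was most like Cdk18 (0.927), Mbp (0.923), which encodes myelin basic protein, and Angptl4 (0.911), and Myt1 was most like Grin3a (0.934), Dcx (0.922) and Cmtm5 (0.919). Among the 8 factors Myrf and Zfp488 were the most alike pair, at 0.891. Nkx2-2 was most like Crtac1 (0.901). These correlations hold the group differences within them and are descriptions.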

How the data were processed

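The starting values were the log2 probeset values that the authors deposited, made with RMA per the submitters' processing notes. Neither its version nor a genome build for the array's annotation is stated in those sources. Of 269751 probesets, 233753 name 1 gene. The value of a gene is the median of those probesets, and Myrf is listed on the array under an older symbol. RefSeq GRCm38.p6 held 20875 of the 23152 symbols, a synonym gave 2197 more, and 80 stayed as on the array. As dim, the 5788 genes of the lowest 25% by mean (limit 4.40) were dropped.

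The 17364 other genes were fitted with limma 3.58.1 under R 4.3.3 (data.table version 1.17.8) in a model of 4 group means over 14 arrays, with 10 residual and 4.06 prior degrees of freedom. Within each comparison, p was adjusted over all genes by Benjamini-Hochberg, with 0.05 as the threshold. "Rose" and "fell" are used of genes that passed. For EGF they give the level with EGF relative to that without it, and do not say which of the 2 conditions was the change. Python 3.11.15, pandas 2.3.3 and matplotlib 3.10.9 made gene values and figures.

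The clones are paired across EGF by animal. Deviations from group means correlated within clones 1 to 7 at 0.474, 0.323, 0.459, 0.337, 0.584, 0.156 and 0.616, and no clone correlated better with another clone. For the random block limma estimated a correlation of 0.348.

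The 8 members and all lists were chosen with earlier results of these data known. Besides the members, the text names Cic, Xist (chosen after its values were seen), the genes whose pattern is most like a member by Pearson r, and, per list and comparison, at most 4 genes that pass and 2 that do not, by p. Alternatives were the mean or brightest probeset, other dim filters, a trended prior, 2 other scalings, the clone as a block, a fit of just the arrays compared, a 1.5-fold minimum, and leaving out each clone. On simulated data for the genotype comparison without EGF over 17364 genes, 94% of changes of 2 were recovered, 58% of changes of 1, 53.2% of changes of -1 and 8% of changes of 0.5, with 9 false calls.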

Additional observations from a re-analysis of the deposited data

Results flagged for a closer look

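Of 24 groups of 4 arrays or sets of clone values examined, 2 held a clone far from the others, and chance flags about 1 in 20 such groups. Tcf7l2 in Cic+/+ clones without EGF had 7.84 in clone 1, against 8.16 to 8.19 in the other 3 clones, and the gap was 0.912 of the whole range. Zfp488 in the same arrays had 6.88 in clone 1, against 7.36 to 7.46 in the other 3, and the gap was 0.829 of the range. The limit for a flag among 4 values was 0.829, so Zfp488 lay at the limit itself. Clone 1 was the lowest of the Cic+/+ clones without EGF in 5 of the 8 factors. Without clone 1, the genotype difference of Zfp488 without EGF had a limma adjusted p of 0.00837.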

How the results depend on the processing

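Of the 8 factors, Myrf kept its call between genotypes without EGF and for EGF in Cic+/+ clones under every alternative except the brightest probeset, where the differences were -0.31 and -0.24. Zfp488 between genotypes without EGF lost its call with only the arrays compared (limma adjusted p = 0.172), with a 1.5-fold minimum, and without clone 2, 3, 4, 5 or 6. Counts of factors that passed were as follows. Between genotypes with EGF it was 1 (Zfp488) with the mean of probesets or the brightest one, against 0. Without EGF it was 1 with the brightest probeset (Zfp488), and 1 with a 1.5-fold minimum or only the arrays compared (Myrf), against 2. For EGF in Cic-/- clones it was 0 with the mean, the brightest probeset, no dim filter, a 1.5-fold minimum or only the arrays compared, against 1. For EGF in Cic+/+ clones it was 2 with the mean of probesets and 4 with the clone as a random or fixed replicate block, against 1. For the difference in the EGF effect it was 1 with the random block, against 0. The block changed no other call of the 8 factors. Leaving out a clone gave 0 factors between genotypes with EGF, 1 to 2 without EGF, 0 to 1 for EGF in Cic-/-, 1 to 2 for EGF in Cic+/+ and 0 for the difference.

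Over all genes, the counts that passed moved as follows. Between genotypes with EGF there were 55, and 7 with a 1.5-fold minimum. Without EGF there were 96, and 170 with the mean, 44 with only the arrays compared and 24 with a 1.5-fold minimum. For EGF in Cic-/- clones there were 33, and 70 with the mean, 51 with a 50% dim filter, 50 with a trended prior or median-centred arrays, 59 with quantile normalization, 361 and 519 with the random and fixed block, 3 with only the arrays compared and 0 with a 1.5-fold minimum. For EGF in Cic+/+ clones there were 156, and 256 with the mean, 897 and 969 with the random and fixed block and 12 with a 1.5-fold minimum. For the difference there was 1, and 2 with the mean, 0 with the brightest probeset or the 50% filter, and 7 and 3 with the random and fixed block. Leaving out a clone gave 19 to 60, 53 to 125, 0 to 68, 17 to 217 and 1 to 3 genes in these 5 comparisons.

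Values that changed sign were not past the threshold in the main model. Between genotypes with EGF, Nkx6-2 was -0.02 with the mean and -0.10 with the brightest probeset, and Myrf was 0.20 with the brightest. Without EGF, Olig2 was 0.02 and Myt1 -0.16 with the brightest, Myt1 was -0.02 with the mean, and Olig1 was 0.00 with centred arrays. For EGF in Cic-/- clones, Myrf was 0.28 and Zfp488 -1.15 with the brightest, Zfp488 was -0.29 with the mean and 0.00 with centred arrays, and Olig2 was 0.05 with quantile normalization. For the difference, Myt1 was 0.04 with the brightest and Nkx2-2 was -0.03 with centred arrays. With a clone left out, the ranges that crossed 0 were -0.11 to 0.16 (Nkx6-2) and -0.21 to 0.06 (Tcf7l2) between genotypes with EGF, and -0.14 to 0.08 (Olig1) and -0.10 to 0.21 (Myt1) without EGF. For EGF in Cic-/- clones they were -0.09 to 0.17 (Olig2), -0.30 to 0.12 (Myrf) and -0.15 to 0.10 (Zfp488). For the difference they were -0.26 to 0.04 (Olig1), -0.24 to 0.02 (Olig2) and -0.30 to 0.34 (Nkx2-2). The cause of these shifts was not tested. In the smaller fits fewer arrays set the spread. On simulated data for the genotype comparison without EGF, changes of 0.5 were mostly missed. Small differences of the 8 factors in that comparison are thus at the limit of these arrays. The simulation held no pairing of clones, and the other comparisons were not simulated.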

Other observations

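A probeset that names both Nkx2-2 and the antisense transcript Nkx2-2as was left out of the value of Nkx2-2. With EGF its levels were 6.88, 7.23 and 7.58 in Cic-/- clones 5 to 7, against 7.73, 7.65, 7.87 and 7.69 in Cic+/+ clones 1 to 4. Without EGF they were 7.43, 7.03 and 7.66 in Cic-/- clones, against 8.07, 7.98, 8.44 and 7.45 in Cic+/+ clones. With EGF the groups did not overlap, and without EGF clone 4 lay among the Cic-/- clones. The sense and the antisense transcript cannot be told apart on this probeset, and it was given no test.

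Among 8 astrocyte genes, 3 fell with EGF in Cic+/+ clones, where 0.593% of all genes fell. These were the water channel Aqp4 (-2.28 ± 0.32, limma adjusted p = 0.00379), the gap junction protein Gja1 (-0.88 ± 0.15, 0.0152) and the calcium-binding protein S100b (-2.14 ± 0.44, 0.0369). In Cic-/- clones none of the 8 passed with EGF in limma and 5 had an unadjusted p under 0.05, with Aqp4 at -1.72 ± 0.37 (limma adjusted p = 0.0758). For the difference in the EGF effect none of the 8 passed in limma, and the gap junction gene had the lowest unadjusted p, at 0.0159. Of 11 genes of neuroblasts and neurons none passed in limma in any comparison, and 0 to 3 had an unadjusted p under 0.05. Dcx, a microtubule protein of migrating neuroblasts and a gene whose pattern is close to that of Myt1, differed by -2.74 ± 0.54 with EGF in Cic-/- clones (limma adjusted p = 0.0518) and by -1.22 ± 0.46 in Cic+/+ clones (limma adjusted p = 0.274).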
